A study of Mus musculus with 3 samples.

Results

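Choroid plexus cells of E11.5 and E12.5 mouse embryos (E, embryonic day) were captured together and are told apart here by the fluorescent reporter each cell carries. Cells were taken from both wild-type libraries if they had at least 1000 genes, at least 2000 unique molecular identifiers (UMIs, each standing for 1 captured RNA molecule) and at most 10% mitochondrial UMIs, and if Ttr, the transthyretin gene of choroid plexus epithelium, gave at least 20 UMIs per 10000. Those with eYFP and no dtTomato UMI were counted as E11.5, and those with dtTomato and no eYFP UMI as E12.5. The first wild-type library held 705 E11.5 and 106 E12.5 cells and the second 647 and 103, in all 1561 of the 33001 cells of the series that passed the cell filter. Ttr, eYFP and dtTomato chose the cells, so their levels are given as a description.

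The study took the dorsal midline of the pallium from both hemispheres of C57BL/6J embryos and profiled dissociated cells with droplet 3′ RNA sequencing. The E11.5 cells came from 4 PGKCre;Rosa26YFP embryos and the E12.5 cells from 4 Wnt3aCre;Rosa26tdTomato embryos, pooled into 1 suspension from which both wild-type libraries were made. Another library from 4 Gmnc-/- embryos at E12.5 holds no reporter and was not used for the comparison. PGKCre is driven by a promoter active in most cells, whereas Wnt3aCre marks only cells descended from those that expressed Wnt3a, the Wnt ligand of the cortical hem. The E12.5 class is therefore the Wnt3a-lineage share of the later choroid plexus, and stage, Cre line, labelled lineage, embryo pool and its sex make-up cannot be told apart. With 1 pool of embryos per stage there is no test. Both libraries repeat the capture of the same suspension, and every interval below is an exact 95% interval that covers counting error only.

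The choroid plexus is the secretory epithelium of the brain ventricles. It makes cerebrospinal fluid and secretes carrier and growth factor binding proteins into it. It arises at the dorsal midline under Bmp signalling, next to the cortical hem, which is a source of Wnt signals and of Cajal-Retzius neurons. Its cells leave the cell cycle as they mature, and many build tufts of motile cilia through a programme run by Gmnc, Mcidas, Foxj1 and Trp73.

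The gene with the largest difference between the reporter classes was Gm10709, a processed copy of the ribosomal protein gene Rpl29. Short windows of both genes are shown because they differ by single bases over the aligned part, where a short read tells them apart only if it covers one of these positions. In the mouse genome build GRCm38 with the GENCODE vM21 annotation, Gm10709 (ENSMUSG00000074516) is a processed pseudogene at chr9:7751725-7752204 on the plus strand. Rpl29 (ENSMUSG00000048758), which encodes a protein of the large ribosomal subunit, lies at chr9:106429454-106431568 on the plus strand. The coding sequence of Rpl29 aligned with Gm10709 over 480 bases, of which 476 match (99.2%). The 4 differences are G205A, C300T, T423C and G457A, with the base of Rpl29 first, the position counted from 1 at the first coding base of Rpl29, and the base of Gm10709 last. Each window runs 5′ to 3′ on the plus strand over 25 bases, with the differing base in capitals.
Rpl29 at 205 (chr9:106431159-106431183): gtgagtgcgcgcGcagaggccatca
Gm10709 at 205 (chr9:7751917-7751941): gtgagtgcgcgcAcagaggccatca
Rpl29 at 300 (chr9:106431254-106431278): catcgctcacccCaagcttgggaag
Gm10709 at 300 (chr9:7752012-7752036): catcgctcacccTaagcttgggaag
Rpl29 at 423 (chr9:106431377-106431401): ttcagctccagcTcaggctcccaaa
Gm10709 at 423 (chr9:7752135-7752159): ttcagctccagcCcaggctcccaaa
Rpl29 at 457 (chr9:106431411-106431435): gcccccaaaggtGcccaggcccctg
Gm10709 at 457 (chr9:7752169-7752193): gcccccaaaggtAcccaggcccctg

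Of the 450 stretches of 31 bases in Gm10709, 333 (74%) also occur in Rpl29, as do 312 of 1622 (19.2%) of those in Gm3550, another gene that resembles it. Reads could therefore be split or lost between these genes in counting, and their single levels are uncertain.

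The deposited matrices held 12426 and 10399 barcodes in the wild-type libraries, with 148073906 and 139978761 UMIs. Choroid plexus cells of the E11.5 class had a median of 10910 UMIs in the first library and 12704 in the second, and those of the E12.5 class had 16057.5 and 17437. The summed class totals behind each level were 9896736 and 10376262 UMIs at E11.5 and 1982468 and 1990545 at E12.5. The wild-type libraries shared 1914 barcodes. Among the cells compared, 57 (8.09%) and 136 (21%) of the E11.5 class and 22 (20.8%) and 32 (31.1%) of the E12.5 class had such a barcode. These cells had a median of 33262 UMIs in the first library and 27574.5 in the second, while the same barcode in the other library had 657 and 659.5. Only 52 shared barcodes passed the cell filter in both libraries and 2 were choroid plexus cells in both.

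The reporters split the 1077 and 970 cells above the Ttr limit unevenly. Cells with eYFP alone made up 65.5% and 66.7% in the first and second library, and cells with dtTomato alone made up 9.84% (8.13 to 11.8) and 10.6% (8.75 to 12.7). Both reporters were found in 51 and 42 cells, and neither in 215 (20%) and 178 (18.4%). Erythroid cells, in which free RNA of the suspension can be read as background, had dtTomato alone in 2.63% and 6.03%. They had eYFP alone in 57% and 53.3%, not far below the choroid plexus cells. PGKCre can label erythroid cells too, so they give no clean background for eYFP. Which part of their eYFP was free RNA was not tested. A call from 1 UMI made 9.36% and 8.35% of the E11.5 class and 30.2% and 28.2% of the E12.5 class. Doublet scoring marked 24 of 51 (47.1%) and 19 of 42 (45.2%) cells with both reporters, 10.4% and 8.35% of the E11.5 class, and 9.43% and 3.88% of the E12.5 class.

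The label choroid plexus was checked against genes other than Ttr. Folr1, the folate receptor that moves folate into cerebrospinal fluid, stood at 191.5 and 196.9 CPM (UMI counts scaled to a class total of 1e+06) in E11.5 cells and 198.7 and 215.5 in E12.5 cells, against 28.3 and 26.6 in cells below the Ttr limit. Htr2c, a serotonin receptor of choroid plexus epithelium, stood at 101.5 and 116.7 CPM in E11.5 cells, 98.4 and 90.9 in E12.5 cells, and 0.8 and 0.7 below the limit. Aqp1, a water channel of the mature epithelium, was near 0 in both classes, at most 3.4 CPM, so the cells carried most epithelial markers but not this one. Just outside the Ttr limit, at 15 to under 20 UMIs per 10000, there were 40 and 27 cells, with Folr1 at 129.2 and 112.8 CPM. Just inside it, at 20 to under 25, there were 45 and 30 cells, with Folr1 at 115.6 and 105.4 CPM.

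Gm10709 stood at 176 and 148 CPM in E11.5 cells and at 3.03 and 3.01 in E12.5 cells, where 6 UMIs were counted in each library. Both E11.5 values lay far above both E12.5 values. At least 1 UMI of it was found in 84.3% and 84.4% of E11.5 cells but in 5.66% and 4.85% of E12.5 cells. Rpl29 stood the other way, at 571.5 and 623.2 CPM in E11.5 cells and 1031.5 and 1106.2 in E12.5 cells. Gm3550 followed Gm10709 with 40.3 and 48.4 against 14.6 and 12.6 CPM. The sum of the 3 genes was 1.33 times as high in E12.5 cells in the first library and 1.37 times in the second. The same ratio was 1.36 and 1.36 in cells with cortical hem transcripts and 1.34 and 1.44 in neurons, so the difference was not limited to choroid plexus cells. These genes were chosen after their values were seen.

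Gm10709 also separates the cells that the rule leaves aside. In choroid plexus cells with both reporters it stood at 68.2 and 73.9 CPM, between the 2 classes. In cells with neither reporter it stood at 13.2 and 11.3 CPM, and 7.91% and 8.43% of them had a UMI of it. Cells with neither reporter were therefore nearer to the E12.5 class by this gene, although they carry no dtTomato UMI. Their median depth was 9470 and 10744.5 UMIs, below that of both classes.

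**Figure D1:**
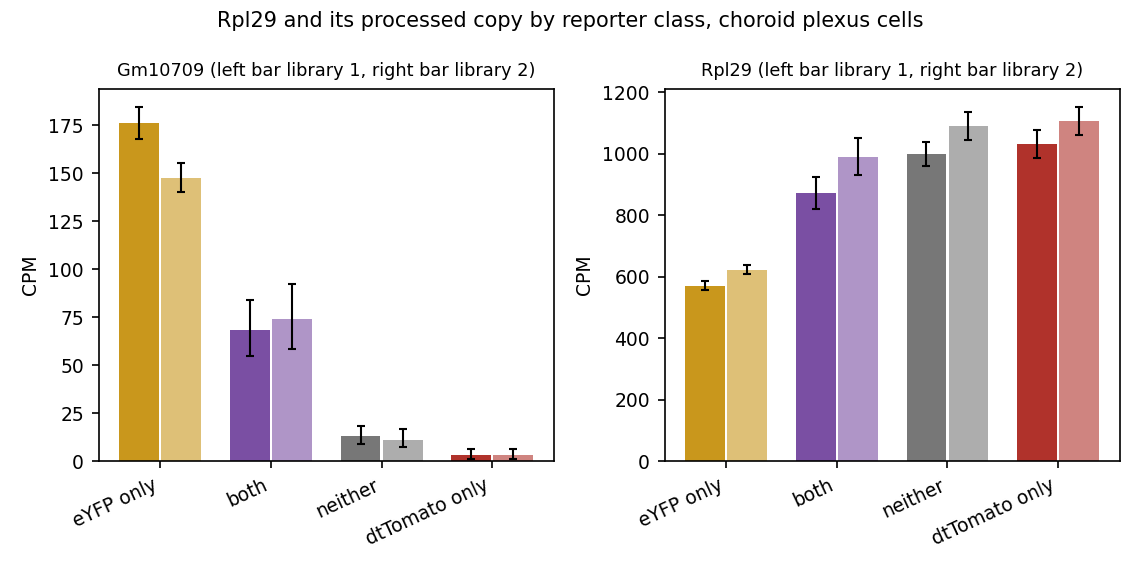
Level of Gm10709 (left panel) and Rpl29 (right panel) in CPM on a linear axis for choroid plexus cells of each reporter class, with 1 bar per library and 95% Poisson intervals. Gm10709 is high in cells with eYFP alone and near 0 with dtTomato alone, and cells with neither reporter sit near the dtTomato cells for both genes.

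Across the transcriptome the classes were close. A gene was measured if it had at least 50 UMIs over both libraries and a mean of 20 CPM in the class where it was higher, and it was called if it differed at least 2-fold in the same direction in each library with intervals that did not overlap. Of 6718 measured genes, 0 were called higher in E12.5 cells and 3 lower (0.0447%), namely Gm10709, Gm3550 and Nr2f1. The ratio of the classes, with its interval, lay within 2-fold either way for 6697 genes (99.7%) and within 1.5-fold for 6314 (94%). The middle 90% of genes spanned log2 ratios from -0.24 to 0.22. Between the 2 libraries the middle 90% spanned -0.17 to 0.21 for E11.5 cells (6663 genes) and -0.40 to 0.38 for E12.5 cells (6037 genes). These are single ratios, whereas the span between the classes is of ratios averaged over both libraries, so the widths are not directly comparable. The smaller E12.5 class thus also varied between captures of 1 suspension. Counts were also simulated at these depths with counting error only. From them the rule recovered 7 of 50 genes (14%) changed 2-fold, 46 of 50 (92%) changed 3-fold and 0 of 50 changed 1.5-fold. A difference near the limit would thus mostly be missed.

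At a 1.5-fold limit, 5 genes stood higher (0.0744%) and 5 lower (0.0744%). The higher ones were Rpl29, Klf4, Neat1, E2f8 and Gt(ROSA)26Sor. The lower ones were the 3 called genes with Rtn1 and Sobp. For comparison, in cortical hem-like cells the 2-fold rule called 1 of 6400 genes higher (0.0156%) and 8 lower (0.125%), 9 in all (0.141%). In neurons it called 2 of 6720 higher (0.0298%) and 11 lower (0.164%), 13 in all (0.193%). In all cells below the Ttr limit it called 2 of 6281 higher (0.0318%) and 5 lower (0.0796%), 7 in all (0.111%). Whether choroid plexus cells differ less than these populations was not tested.

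**Figure D2:**
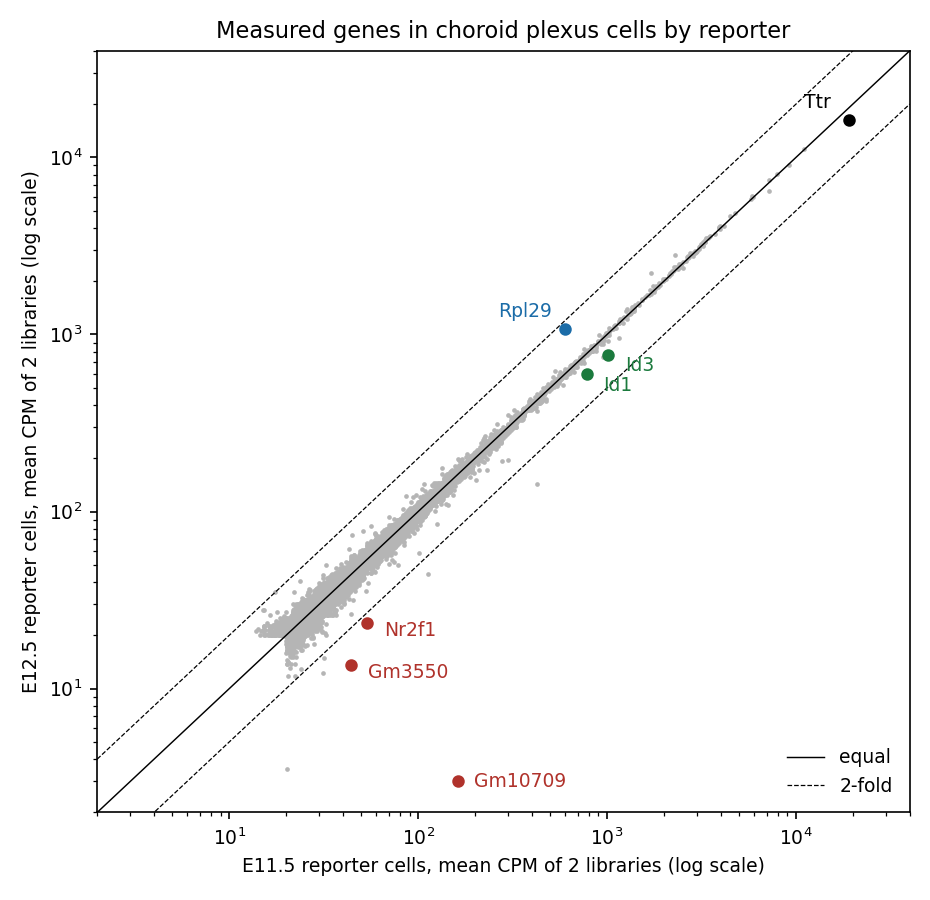
Each of the 6718 measured genes by its mean CPM over both libraries in E11.5 cells (x, log scale) and E12.5 cells (y, log scale), with lines at equality and at 2-fold. Gm10709, Gm3550 and Nr2f1 lie below the lower 2-fold line, Rpl29 lies above equality, and Id1 and Id3 lie slightly under it.

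Secreted and binding proteins of the epithelium were at like levels in both classes. Of 14 measured members of the list, 0 were called, 8 stood above equality in both libraries and 4 below it in both, and the median log2 ratio was 0.06, beside -1.3e-05 over all measured genes. For this list and all lists below, the share of all measured genes on the same side in both libraries is not given. Both libraries come from 1 suspension, so such counts describe repeatability and do not set a list apart. Igfbp2, a binding protein for insulin-like growth factors, stood at 1377 and 1371 CPM in E11.5 cells and 1427 and 1415 in E12.5 cells, a ratio of 1.03 (1.01 to 1.06). Mdk, the secreted growth factor midkine, stood at 1299 and 1260 against 1428 and 1363 CPM, and Sulf1, an extracellular sulfatase, at 1208 and 1308 against 1299 and 1419. For each of these the E12.5 values were the higher ones in each library. Sostdc1, a secreted Bmp and Wnt antagonist, stood the other way at 274 and 277 against 259 and 236 CPM, a ratio of 0.897 (0.837 to 0.96). Cst3, the protease inhibitor cystatin C, had a ratio of 0.928 (0.874 to 0.984), and Ptn, the growth factor pleiotrophin, 1.07 (0.998 to 1.14). The interval of all 14 members lay within 2-fold.

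Channels and transporters were likewise close. None of the 12 measured members was called, 3 stood higher and 3 lower in both libraries, and the median log2 ratio was 0.02. Clic6, a chloride channel protein, stood at 358.7 and 374 CPM in E11.5 cells and 322.3 and 411.4 in E12.5 cells, and the ranges overlap. Car14, a membrane carbonic anhydrase, stood at 272 and 260 against 261 and 287 CPM. Trpm3, a cation channel of this epithelium, stood at 235 and 253 against 250 and 298 CPM, a ratio of 1.12 (1.05 to 1.2).

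Kcne2 and Kcnj13, a potassium channel subunit and a potassium channel of the ventricular face, were the channel genes furthest below equality, and were picked after their values were seen. Kcne2 stood at 149 and 138 CPM in E11.5 cells and 93.8 and 123 in E12.5 cells, a ratio of 0.756 (0.681 to 0.837). Kcnj13 stood at 82.8 and 97 against 61.5 and 84.4 CPM, a ratio of 0.811 (0.714 to 0.918). The direction of both turned when the later class was all cells without eYFP (log2 ratios of 0.05 and 0.10) or cells with neither reporter (0.35 and 0.36), and that of Kcnj13 also in cells without cell cycle UMIs (0.50), where 10 and 4 E12.5 cells remained. Both were highest in cells with neither reporter, at 190 and 176 CPM for Kcne2 and 114 and 117 for Kcnj13. Ttr, which chose the cells, moved with them: its median was 155.7 and 167.7 UMIs per 10000 in E11.5 cells, 107.2 and 146.8 in E12.5 cells and 218.9 and 210.1 in cells with neither reporter. Its part in the difference was not tested.

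**Figure D3:**
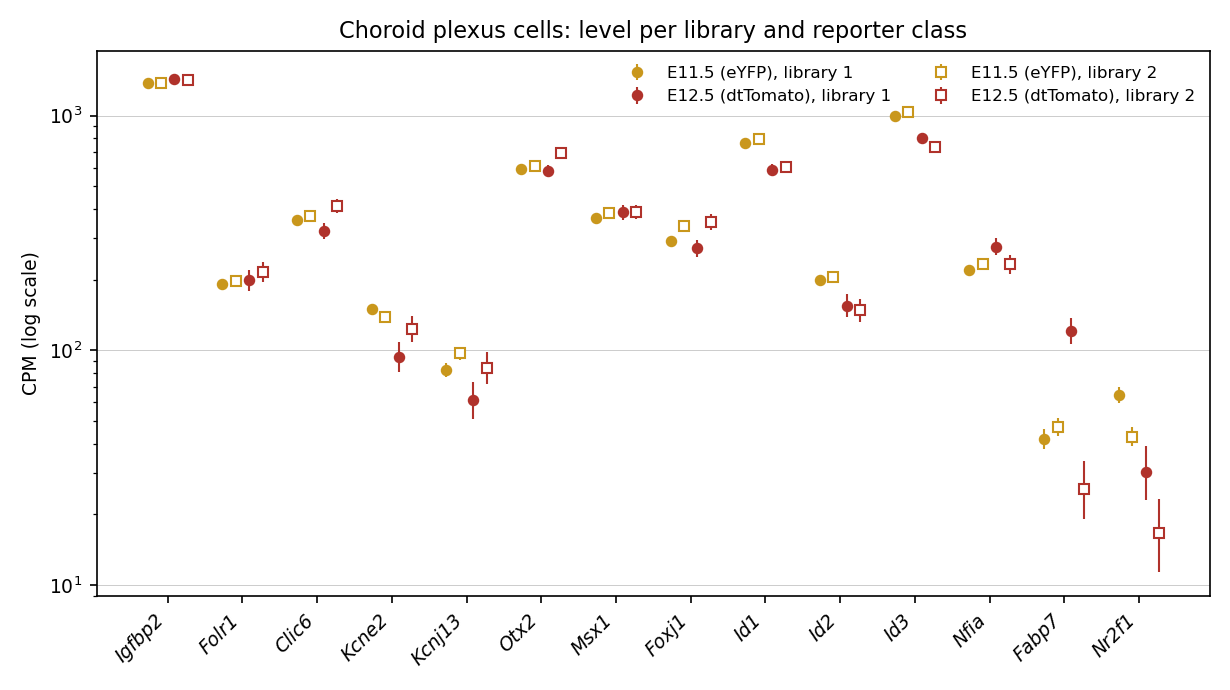
Levels in CPM (log axis) of 14 genes in choroid plexus cells, with filled circles for the first library and open squares for the second, colours for the reporter class and 95% Poisson intervals. Igfbp2, Folr1, Clic6, Otx2, Msx1 and Foxj1 lie close together in the classes. Kcne2, Kcnj13, Id1, Id2, Id3 and Nr2f1 are lower in E12.5 cells in both libraries. The 2 E12.5 values of Fabp7 lie far apart.

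Factors that set choroid plexus fate differed little as a list, with 0 of 21 measured members called, 6 higher and 5 lower in both libraries, and a median log2 ratio of -0.02. Otx2, the homeodomain factor needed for choroid plexus development, stood at 591 and 610 CPM in E11.5 cells and 582 and 696 in E12.5 cells. Msx1, a homeodomain target of Bmp signalling, stood at 366 and 383 against 387 and 388 CPM, and its ratio was 1.03 (0.979 to 1.09). Zic1 and Zic4, zinc finger factors of the dorsal midline, had ratios of 1.08 and 1.09, and Zic5 had 0.991. Gmnc, which starts multiciliation and is deleted in the library left aside, stood at 73 and 84 against 76.7 and 80.4 CPM, a ratio of 0.999 (0.882 to 1.13). For Otx2 and Gmnc the values of the classes overlapped. For Msx1 both E12.5 values were slightly above both E11.5 values, with a ratio interval that includes equality. Id1 and Id3, also members of this list, are given next.

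The Id genes stood lower in E12.5 cells. They encode helix-loop-helix inhibitors of differentiation factors that Bmp signalling induces. Id3 (chr4:136143497-136145755) stood at 996 and 1035 CPM in E11.5 cells and 803 and 734.5 in E12.5 cells, a ratio of 0.757 (0.728 to 0.786). Id1 (chr2:152736251-152737410) stood at 767 and 792 against 587 and 602 CPM, a ratio of 0.762 (0.73 to 0.796). The classes did not overlap for either gene, and neither reached the 2-fold rule. Id2 and Id4, named after their values were seen, had ratios of 0.749 (0.686 to 0.816) and 0.617 (0.483 to 0.779).

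In cells with neither reporter, Id3 stood at 693 and 702 CPM and Id1 at 690 and 628, both under the E11.5 values in both libraries. Nog, which encodes the secreted Bmp antagonist noggin and was also picked after its values were seen, stood at 53.6 and 52.4 CPM in E11.5 cells, 36.3 and 35.2 in E12.5 cells and 35.5 and 39.9 with neither reporter. The ligand genes Bmp4 and Bmp7 each had a ratio of 1.09, and the receptor-like antagonist Bambi had 1.01. Over the 14 measured genes of the Bmp list, 0 were called, 3 stood higher and 7 lower in both libraries, and the median log2 ratio was -0.22 (-0.15 in the first library and -0.36 in the second). The same median was 0.13 in hem-like cells and 0.20 in neurons. In hem-like cells Id1 stood at 630 and 632 CPM with eYFP and 692 and 618 with dtTomato, and Id3 at 2000 and 2087 against 2234 and 2248. The direction seen for Id3 in choroid plexus cells was thus the opposite of that in hem-like cells, a difference that was not tested.

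Wnt genes of the dorsal midline had a median log2 ratio of 0.10 over 14 measured members, with 0 called, 6 higher and 1 lower in both libraries. Rspo3, a secreted enhancer of Wnt signalling, stood at 768 and 772 CPM in E11.5 cells and 805 and 798 in E12.5 cells. Axin2, a common target of Wnt signalling, had a ratio of 1.15 (1.05 to 1.25) and the ligand Wnt8b 1.11 (1.05 to 1.16). The median in hem-like cells was 0.38, but those cells were chosen in part by Wnt3a and Rspo genes and their dtTomato by Wnt3aCre.

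**Figure D4:**
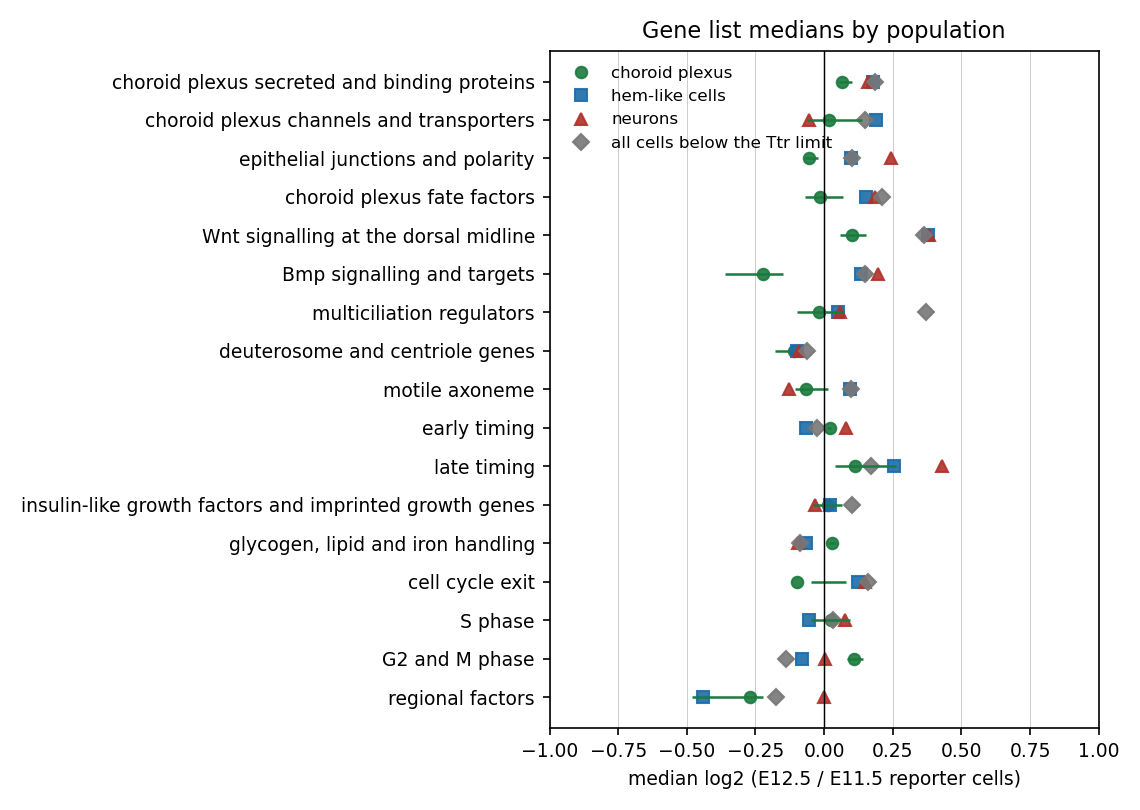
Median log2 ratio of E12.5 to E11.5 reporter cells for each list of epithelial, fate, signalling, cilia, timing, growth, cell cycle and regional genes with at least 6 measured members, in choroid plexus cells (circles, with a line joining the 2 libraries) and in hem-like cells, neurons and all cells below the Ttr limit, which include both. The choroid plexus medians furthest from 0 are those of the regional factors at -0.27 and the Bmp list at -0.22.

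The regulators of multiciliation did not separate the classes, with 0 of 9 measured members called and a median log2 ratio of -0.02. Foxj1, the main activator of motile cilia genes, stood at 291 and 338 CPM in E11.5 cells and 271 and 352 in E12.5 cells, a ratio of 0.99 (0.931 to 1.05), and at 432 and 395 with neither reporter. Ccno, a cyclin needed to amplify centrioles, stood at 122 and 139 against 113 and 124.6 CPM. Mcidas, another regulator of multiciliation, stood at 51.9 and 62.1 against 41.9 and 52.7 CPM. The Mcidas ratio was 0.828 (0.706 to 0.967). Of 29 measured axoneme genes, 0 were called, 5 stood higher and 11 lower in both libraries, and their median was -0.06. Dynlrb2, a dynein light chain, was named after its values were seen and stood at 191 and 206 CPM in E11.5 cells, 148 and 182 in E12.5 cells and 275 and 269 with neither reporter.

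Cells were also scored for motile cilia by at least 3 UMIs over Dynlrb2, Rsph1, Tekt1, Ccdc153 and Tmem212, after every cell was thinned to 4000 UMIs. The last gene had no UMI in these cells and Ccdc153 at most 0.5 CPM, so the score rests on the other 3. The share was 22.9% (19.9 to 26.3) and 24.9% (21.6 to 28.4) of E11.5 cells and 18.4% (11.49 to 27.3) and 26.2% (18 to 35.8) of E12.5 cells, so the classes overlapped. In another random draw of the thinning the means of both libraries were 24.2% and 20.4%. Unthinned it was 35.6% and 38.5% against 33% and 41.7%. Thinning left out 12 and 12 E11.5 cells and 3 and 0 E12.5 cells. Erythroid cells gave 0 of 227 and 0 of 199.

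The share rose over the Ttr bands in E11.5 cells. In E12.5 cells it rose over all bands in the second library only. In E11.5 cells it went from 8.9% at 20 to under 100 Ttr UMIs per 10000 through 22% to 42.8% at 300 or more in the first library, and from 6.42% through 24.2% to 46.6% in the second. In E12.5 cells it went from 14.9% through 14.3% to 38.9% and from 2.78% through 37.5% to 40.7%. These E12.5 bands held 47, 35 and 18 cells in the first library and 36, 40 and 27 in the second. The intervals of the top band were 17.3 to 64.3 and 22.4 to 61.2. In the second library the middle band, at 22.7 to 54.2, overlapped it widely. Cells with neither reporter went from 9.52% through 25.5% to 47.1% and from 5.13% through 30.6% to 44.4%. In every group the highest Ttr band had the highest share. The lowest band held 45.6% and 35% of the thinned E12.5 cells but 34.1% and 29.4% of the E11.5 cells.

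**Figure D5:**
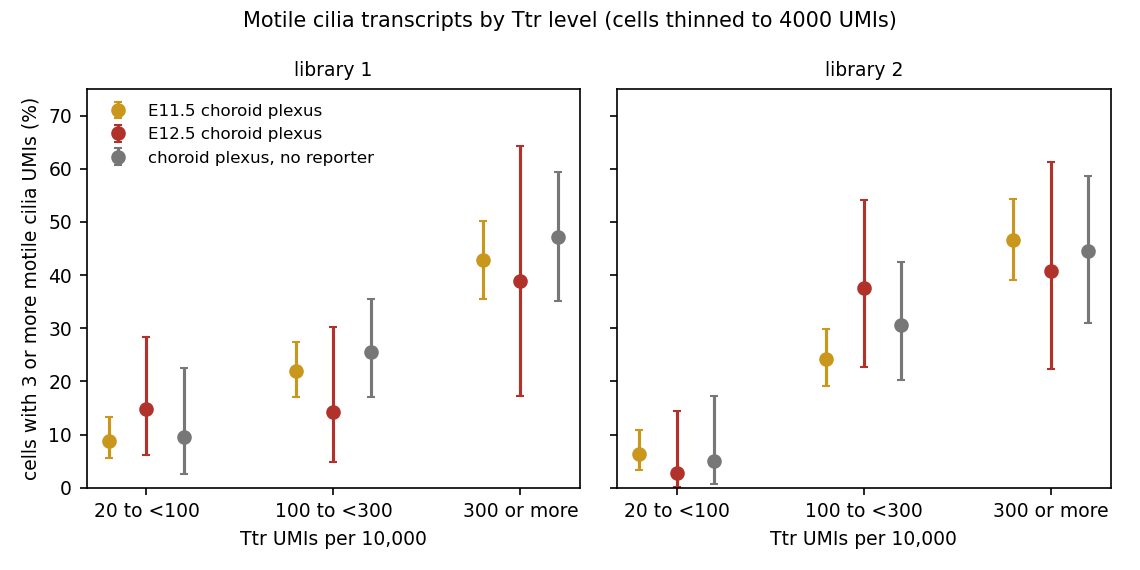
Share of cells with at least 3 motile cilia UMIs (y, %, cells thinned to 4000 UMIs) in 3 bands of Ttr level (x, UMIs per 10000) for E11.5 cells, E12.5 cells and cells with neither reporter, 1 panel per library, with exact 95% intervals. The share is highest in the top Ttr band for each group, and the intervals of the classes overlap within the bands.

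Genes that mark developmental time in neural progenitors were nearly level. Hmga2 and Igf2bp1, members of the early programme, stood at 165 and 161 against 172 and 157 CPM and at 155 and 145 against 160 and 147, with ratios of 1.01 and 1.03. Crabp2, a retinoic acid binding protein, had a ratio of 0.918 (0.856 to 0.983). The 8 measured early genes had a median log2 ratio of 0.02 and the 12 late genes 0.11 (0.26 in the first library and 0.038 in the second), with 0 called in either list. Among the late genes 7 stood higher and 1 lower in both libraries. Sparc, a secreted matrix protein, stood at 484 and 491 against 509 and 541 CPM, a ratio of 1.08 (1.03 to 1.13). Nfia, a transcription factor that appears as progenitors age, stood at 220 and 232 against 276 and 232 CPM, and Nfib, its close relative, at 251 and 258 against 295 and 229, so the difference was seen in the first library only. Fabp7, a lipid binding protein of neural progenitors chosen after its values were seen, stood at 42 and 47.2 CPM in E11.5 cells but at 121 and 25.6 in E12.5 cells, and its direction differed between the libraries.

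Cell cycle genes were abundant in both classes. All 22 genes of the G2 and M phase list were measured, 15 stood higher in E12.5 cells in both libraries and 0 lower in both, none was called, and the median log2 ratio was 0.11. Without the share over all measured genes, the 15 cannot be read as a shift of this list. The median of this list was -0.08 in hem-like cells and 0.00 in neurons. The 20 measured S phase genes had a median of 0.03. Cells with at least 3 UMIs over 5 cell cycle genes, thinned to 4000, made up 56.4% (52.6 to 60.2) and 62.2% (58.3 to 66) of the E11.5 class. In the E12.5 class they made up 63.1% (53 to 72.4) and 68% (58 to 76.8), so the intervals of the classes overlapped in each library. Cells that met both the cell cycle and the cilia limits made up 16.9% and 21.4% against 15.5% and 22.3%.

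Nr2f1, the called gene besides the Rpl29 copies, encodes an orphan nuclear receptor of cortical area patterning and lies at chr13:78188973-78199757 on the minus strand. It stood at 64.6 and 42.8 CPM in E11.5 cells and 30.3 and 16.6 in E12.5 cells, and it was 2.28 times higher in E11.5 cells. Both E11.5 values were above both E12.5 values, and cells with neither reporter had 31.1 and 29.5 CPM. Cells below the Ttr limit had 339.2 and 346.8 CPM, so the gene was low in choroid plexus cells of either stage. The log2 ratio of Nr2f1 was -1.19 in choroid plexus cells and -0.71 in hem-like cells. It was -0.010 in neurons and -0.22 in all cells below the Ttr limit. Nr2f1 was not called outside the choroid plexus, but its direction was shared with hem-like cells. The 16 neuron markers summed to 304 and 243 CPM in E11.5 cells and 224 and 137 in E12.5 cells, and Tubb3, a neuronal tubulin, stood at 115 and 86.5 against 82.2 and 35.2. Only 3 of these markers were measured, 1 higher (Cacna2d2, a calcium channel subunit, with a ratio of 1.24) and 2 lower in both libraries, and their median log2 ratio was -0.06. Their part in the Nr2f1 difference was not tested. In the 81 and 79 E11.5 cells with at least 3 neuron UMIs Nr2f1 stood at 206 and 121 CPM, and in the 12 and 10 such E12.5 cells at 73.3 and 38.8. In the remaining cells it stood at 32.6 and 23.5 against 20.4 and 12.9 CPM. Without scored doublets it stood at 25.03 against 17.1 CPM on the mean of both libraries and was no longer called.

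Of 8 measured regional factors, 0 were called, 0 stood higher and 6 lower in both libraries. The median log2 ratio was -0.27 (-0.22 and -0.48 by library), beside -0.44 in hem-like cells, 0.0012 in neurons and -0.17 in all cells below the Ttr limit. Lhx2, a selector of cortical fate that opposes hem identity, stood at 135 and 118 CPM in E11.5 cells and 99.4 and 70.3 in E12.5 cells, a ratio of 0.673 (0.599 to 0.754). Six3, a forebrain homeodomain factor, stood at 210 and 212 against 179 and 166 CPM. Both were named after their values were seen. The part of neuronal transcripts in these values was not tested.

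Haemoglobin was high in E11.5 cells of the first library. The erythroid markers summed to 1038 and 239 CPM in E11.5 cells and 242 and 206 in E12.5 cells. All 4 measured members were lower in E12.5 cells in both libraries, with a median log2 ratio of -2.09 in the first and -0.15 in the second. Markers of mesenchyme summed to 98.5 and 67.8 against 67.6 and 68.8 CPM, and those of endothelium to 51.4 and 50.6 against 51.5 and 55.8. Microglia markers reached at most 5.15 CPM and surface ectoderm markers at most 4.05, so transcripts of these cell types were near absent. Of 3 measured sex-linked genes, 0 were called, and 2 stood higher and 1 lower in E12.5 cells in both libraries. Their median log2 ratio was 0.58 (0.43 in the first library and 0.73 in the second). The part of sex make-up in the other differences was not tested.

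Of the genes above equality in E12.5 cells, several respond quickly to cell handling and were chosen after their values were seen. Klf4, an immediate response factor, stood at 17.1 and 17.8 CPM in E11.5 cells and 29.3 and 40.7 in E12.5 cells, a ratio of 2.00. Its ratio was 1.82 in hem-like cells, 2.01 in neurons and 1.97 in all cells below the Ttr limit, so the difference was not limited to choroid plexus cells. Dusp1, a stress-induced phosphatase, stood at 81.8 and 91.3 against 119.5 and 126.6 CPM, a ratio of 1.42 (1.28 to 1.57), but its log2 ratio was -0.021 after thinning to 4000 UMIs and -0.11 at a Ttr limit of 500. Over the 8 measured genes of the dissociation stress list the median log2 ratio was 0.17, 4 stood higher and 2 lower in both libraries, and 0 were called. Gt(ROSA)26Sor, the transcript of the locus that carries both reporters (chr6:113067428-113077333, minus strand), stood at 24.1 and 23.2 against 41.4 and 39.7 CPM, and at 41.5 and 36.1 with neither reporter. Its log2 ratio turned to -0.32 in cells without cell cycle UMIs. The ratio of Gt(ROSA)26Sor was 1.71 in choroid plexus cells, 1.88 in hem-like cells and 1.39 in neurons. In all cells below the Ttr limit it was 2.55, and the gene was called there. Neat1, a nuclear long noncoding RNA, stood at 20.2 and 23.6 against 32.8 and 37.2 CPM and was highest with neither reporter, at 45.5 and 51.1.

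Scd2, a fatty acid desaturase named after its values were seen, was lower in E12.5 cells in every population set side by side. In choroid plexus cells it stood at 234 and 230 against 167 and 177 CPM, a ratio of 0.743 (0.685 to 0.805). Its log2 ratio was -0.42 in hem-like cells and -0.48 in neurons.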

How the data were processed

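Single cells of 2 wild-type libraries from 1 suspension were compared. The values are raw UMI counts per gene and cell, made by the authors with Cell Ranger 3.1.0 per the submitters' processing notes and deposited as filtered matrices on mm10. Which gene annotation was counted is not stated in these sources. The third library, whose file header names version 6.0.0, was only counted.

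Counts were summed per reporter class and library with Python 3.11.15, numpy 2.4.6, pandas 2.3.3 and scipy 1.17.1, and divided by the class total to give CPM. Levels have exact Poisson intervals, shares have Clopper-Pearson intervals, and ratios have intervals conditional on the summed counts, all at 95%. A log2 ratio is the log2 of CPM + 1 in E12.5 cells over CPM + 1 in E11.5 cells, averaged over both libraries. The measured-gene filter admits a gene by the class in which it is higher. Ratios and levels rest on 3′ counts, so levels are not compared between genes. Hem-like cells were those below the Ttr limit with at least 2 UMIs over Wnt3a, Wnt2b and the Rspo genes and under 5 of Tubb3, and neurons those with at least 2 over Trp73, Reln and Lhx1 and at least 5 of Tubb3. Doublets were kept in the comparison and removed in an alternative: cells were scored against simulated doublets with scikit-learn 1.9.0, which marked 1053 (11.1%) and 679 (8.32%) cells. The calling rule was tested on simulated counts, where it called 0 of 6497 unchanged genes. These counts held counting error only, so they cannot show calls that arise from spread between cells or captures. Between the 2 libraries, the same limits in a single comparison called 7 of 6663 genes in E11.5 cells and 14 of 6037 in E12.5 cells. Sequences were aligned without gaps, at the offset with the best score of matches against mismatches.

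The cells, lists and rules were chosen with earlier results of these data known. Genes named by rule were the 12 highest and 12 lowest called genes (leaving out transgenes and mitochondrial, ribosomal, haemoglobin, sex-linked, Gm-number and Rik genes), up to 4 called members per list, and members of the secreted, channel, fate, multiciliation and timing lists with at least 200 CPM or among the 3 most abundant. All others were chosen after their values were seen. Alternatives changed the scaling, the filters, the fold limit, the reporter and Ttr limits, the cells kept and the library.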

Additional observations from a re-analysis of the deposited data

How the results depend on the processing

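The 3 called genes kept their direction under all alternatives run, while some list medians near 0 changed sign. Gm10709 lost its call only at a Ttr limit of 500, which leaves 3 and 4 E12.5 cells, Gm3550 lost it under 4 alternatives and Nr2f1 under 8, which all change the cells, their depth or, for Gm3550 only, the filter. For the count of genes higher in E12.5 cells, 0 in the comparison as reported, the values were 4 with a minimum of 10 UMIs and no CPM minimum, 5 at 1.5-fold, and 1 each at a Ttr limit of 500, after thinning to 4000 UMIs, without cells with motile cilia UMIs and with cells of neither reporter as the later class. For the count of genes lower, 3 as reported, they were 10, 5 and 1 for the first 3 of these, 5 without cells with motile cilia UMIs, 5 under a stricter cell filter, 6 without barcodes found in both libraries and 5 without cells with 10 or more haemoglobin UMIs. With a single library, the count higher was 2 without either library, and the count lower ranged from 12 to 13. The later classes without eYFP and with neither reporter, and the removal of shared barcodes and of haemoglobin, were chosen after seeing the data.

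The median of the secreted list, 0.06 as reported, was 0.0033 with the low minimum, 0.016 at a Ttr limit of 100, -0.51 at 500, 0.025 without doublets, -0.032 without cells with markers of other types, -0.15 in cells without cell cycle UMIs, 0.10 with neither reporter, 0.012 without shared barcodes and 0.021 without haemoglobin, and from 0.053 to 0.11 with a single library. The channel median was -0.62 at a Ttr limit of 500 and 0.19 with neither reporter. The fate factor median was -0.23 at 500, -0.16 without cell cycle UMIs and -0.12 with neither reporter. The Bmp median was -0.39 at a Ttr limit of 100, -0.62 at 500, -0.37 after thinning and -0.47 without cell cycle UMIs, so it stayed below 0 in these. The axoneme median was -0.26 with reporters at 2 UMIs, 0.028 at a Ttr limit of 100, -0.66 at 500, 0.090 without motile cilia cells, -0.28 under the stricter filter, 0.14 without eYFP, 0.27 with neither reporter and 0.032 without shared barcodes. The early median was 0.0065 with the low minimum, 0.044 with reporters at 2 UMIs, -1.36 at a Ttr limit of 500, 0.082 without doublets, 0.073 without other-type markers, 0.0063 after thinning, -0.071 without motile cilia cells, -0.42 without cell cycle UMIs, -0.011 under the stricter filter, -0.15 without eYFP, -0.23 with neither reporter and -0.031 without shared barcodes, and from 0.010 to 0.026 with a single library. The late median was -0.78 at 500, -0.39 without cell cycle UMIs and -0.073 with neither reporter. With a single library the late median ranged from 0.038 to 0.26, the Bmp median from -0.36 to -0.15, the channel median from -0.062 to 0.14, the fate factor median from -0.069 to 0.068 and the axoneme median from -0.11 to 0.0063. The cause of these shifts was not tested.

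The motile cilia share, thinned in a separate random draw, was 3.78 percentage points lower in E12.5 cells (20.4% against 24.2%). The difference was 0.34 at a Ttr limit of 100, -7.78 at 500, 1.94 without cell cycle UMIs, -6.7 under the stricter filter, 3.60 without eYFP, 5.64 with neither reporter and 4.14 without shared barcodes, and -0.96 and -1.50 at limits of 1 and 5 cilia UMIs, so its sign is not settled. Id1, Id2, Id3, Id4, Nog and Scd2 stayed lower under the alternatives run. No paired analysis was possible because the results come from no test. Both classes sit in the same libraries, and every ratio was already formed within a library.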
